A study of Homo sapiens with 18 samples.

Results

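The transcripts of 10 cell-cycle genes were followed, out of 40916 gene symbols counted in each of 18 libraries. They were the D-type cyclins CCND1, CCND2 and CCND3, the E-type cyclins CCNE1 and CCNE2, the A-type cyclin CCNA2, the B-type cyclin CCNB1, and the kinases CDK1, CDK2 and CDK4. The genes were selected by their symbols, with no threshold on a measured value, and all 10 were listed in every library. The choice was made with earlier results of these data known, so counts of called members are descriptions.

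Cyclins are the regulatory subunits of cyclin-dependent kinases (CDKs), and each type acts at a different stage of the cell cycle. D-type cyclins couple growth signals to CDK4 and its relative CDK6, which phosphorylate the retinoblastoma protein RB; E-type cyclins then act with CDK2 at entry into DNA replication, cyclin A2 acts with CDK2 and CDK1 during and after replication, and cyclin B1 with CDK1 drives mitosis. DNA damage from ionizing radiation halts this progression through checkpoints, in part through the CDK inhibitor p21 (CDKN1A), and genes of late cell-cycle stages are known to be repressed through RB-family complexes at their promoters.

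Monocultures of MCF10A and HCT116 cells and their mixture were compared. MCF10A is a non-transformed human mammary epithelial line, here carrying an H2B-GFP reporter and grown in medium with horse serum, EGF, hydrocortisone, cholera toxin and insulin. HCT116 is a human colorectal carcinoma line, here unlabelled and grown in McCoy's 5A medium with fetal bovine serum. The mixed cultures were described as 50% of each line, and their medium is not stated. Each kind of culture received 10 Gy of ionizing radiation (IR) or none (NIR), and each of the 6 groups had 3 libraries labelled as biological replicates. By its titles the series was sampled on day 2, by its text 72 hours after irradiation, and the medium differed between the lines together with the line itself.

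The libraries held 25737818 to 40839835 counts, and 10180 symbols had no count in any of them. The intestinal markers CDX1, CDX2, VIL1, CDH17, GPA33, LGALS4, EPCAM and KRT20 summed to 7.68 to 11.2 CPM (counts scaled to a library total of 1e+06) in MCF10A and to 310.1 to 340.1 CPM in HCT116, where CDX1 had no counts, as it and CDX2 and GPA33 had none in MCF10A, and only 2 or 3 of the 8 genes reached 1 CPM in every library of a group. Genes specific to a line put the share of MCF10A RNA in the libraries labelled mixed at 0.503%, 0.438% and 0.399% without irradiation and at 1.29%, 1.17% and 1.27% after it, far from 50%. This is a share of counted RNA, not of cells, and every value of the mixed cultures below is therefore mostly a reading of HCT116 RNA. The mean share of counts from mitochondrial genes was 5.19% (NIR) and 6.20% (IR) for MCF10A, 8.62% and 12.0% for HCT116, and 8.54% and 12.3% for mixed cultures.

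Promoter sequences are shown for the 3 members with late cell-cycle roles that fell in every kind of culture, with CCNE1, whose response differed between the lines, set beside them. Each line gives the 150 bases before the start annotated by RefSeq (GRCh38.p14), read 5′ to 3′ on the gene's strand. Capitals mark TTTGAA or TTTAAA, the words of the cell cycle genes homology region (CHR), then CTTGAA, and CCAAT or its reverse complement ATTGG.
CCNA2: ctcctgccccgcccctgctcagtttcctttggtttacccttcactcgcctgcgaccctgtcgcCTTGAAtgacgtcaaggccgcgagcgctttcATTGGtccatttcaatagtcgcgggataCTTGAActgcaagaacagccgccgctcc
CCNB1: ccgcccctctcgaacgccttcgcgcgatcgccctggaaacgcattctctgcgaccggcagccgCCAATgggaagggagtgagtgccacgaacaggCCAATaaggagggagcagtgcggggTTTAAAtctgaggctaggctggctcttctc
CDK1: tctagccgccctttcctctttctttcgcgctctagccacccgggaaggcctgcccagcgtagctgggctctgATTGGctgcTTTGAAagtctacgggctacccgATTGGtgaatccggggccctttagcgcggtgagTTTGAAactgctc
CCNE1: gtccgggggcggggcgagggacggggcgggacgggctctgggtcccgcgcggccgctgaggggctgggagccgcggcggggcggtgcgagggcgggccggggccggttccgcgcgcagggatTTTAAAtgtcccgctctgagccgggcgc

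These stretches lie at chr4:121823884-121824033 (minus strand), chr5:69167000-69167149 (plus), chr10:60778328-60778477 (plus) and chr19:29811841-29811990 (plus). CCNB1 held TTTAAA 30 bases before its start and CCAAT at 87 and 55 bases before it. CDK1, in the second of its 2 windows, held TTTGAA at 69 and 13 bases before the start and ATTGG at 78 and 46 bases. Its first window, not shown, held TTTGAA at 161, CCAAT at 150 and TTTAAA at 131 bases before its own start. GENCODE v29 places the start of CDK1 at chr10:60778331, of CCNB1 at chr5:69167010 and of CCNE1 at chr19:29811898. Most of the stretch shown for each of these genes therefore lies inside its gene model. The CCNA2 gene model starts at chr4:121823933 on the minus strand, so the end of its stretch lies inside as well. CCNA2 held neither CHR word; it held CTTGAA at 87 and 28 bases and ATTGG at 56 bases before its start. CTTGAA was added to the search after the CCNA2 sequence was seen. CCNE1 held TTTAAA at 28 bases and no CCAAT.

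The search covered both strands of windows from 250 bases before to 50 bases after a start, for 6 members, and no matches overlapped in the 4 stretches shown. The CHR words were present in 23.99% of all 35116 such RefSeq windows, CTTGAA in 11.2% and CCAAT in 34.6%. The words searched for E2F were TTCCCGC and also TTCGCGC, beside which TTGCCGC was searched and then TTGGCGC, and at least 1 of them was in 13.0% of windows. CCNB1 held TTCGCGC at 132 bases, and the second CDK1 window held TTGGCGC at 175 and TTCGCGC at 127 bases before the start. The first CDK1 window held TTGGCGC at 28 bases before its own start and TTCGCGC after it. The CDK4 window held none of these words, and in the 3 CCND3 windows 2 held CCAAT once each and nothing else. A match describes letters in these windows and is not a measured binding site.

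Irradiation was followed by lower transcripts of CCNE2, CCNA2, CCNB1, CDK1, CDK2 and CDK4 in all 3 kinds of culture, and by higher CCND1. CCND3 and CCNE1 did not follow one pattern: both rose in HCT116 and in mixed cultures, while in MCF10A CCNE1 fell and CCND3 was not called. CCNA2 had the largest fall among the members in each kind of culture, and in HCT116 and mixed cultures CCND1 had the largest rise. In bulk libraries, fewer cells with a transcript and less of it per cell cannot be told apart.

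Changes were tested with edgeR's quasi-likelihood test, 2-sided, with Benjamini-Hochberg adjustment over all genes tested, and a gene was called at an adjusted p under 0.05. In MCF10A 9 of the 10 members were called, 2 higher and 7 lower, where 55.4% of 15154 genes were called, 26.2% higher and 29.2% lower. In HCT116 all 9 members that could be tested were called, 3 higher and 6 lower, against 52.5% of 16857 genes, 25.3% higher and 27.2% lower. In mixed cultures 9 of 9 were called, again 3 higher and 6 lower, against 49.4% of 16906 genes, 24.0% higher and 25.4% lower. The median log2 fold change of the members tested was -0.80 in MCF10A, -0.62 in HCT116 and -0.59 in mixed cultures, where the medians of all genes were 0.0035, 0.0072 and 0.012. With upper-quartile factors, 57.5% of the genes called in MCF10A were higher in place of 47.4%. The mitochondrial share rose with irradiation in each kind of culture, and after removal of mitochondrial genes and the 10 most abundant others every member kept its call and direction in these 3 comparisons.

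**Figure D1:**
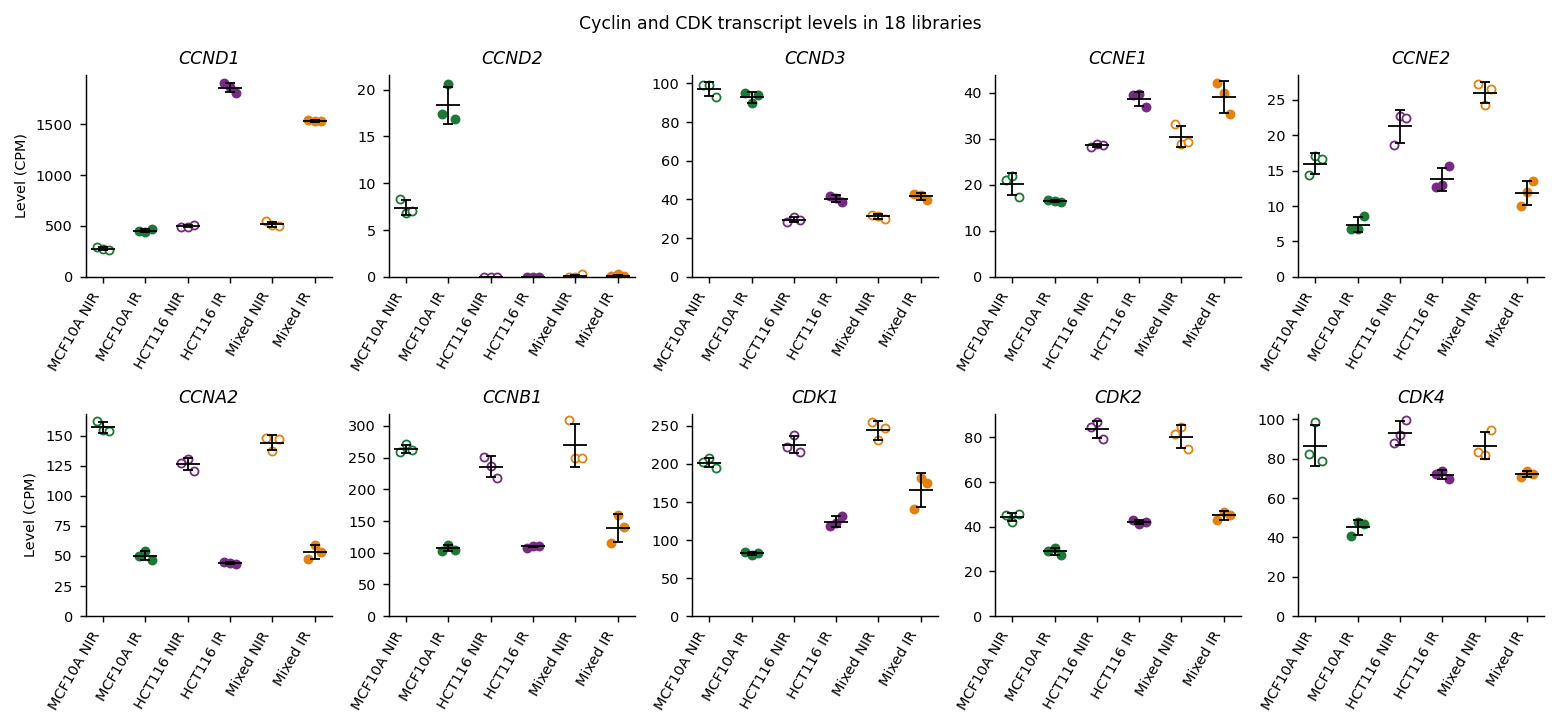
Levels of the 10 members in CPM on linear axes from 0, by group; circles are libraries (open, NIR; filled, IR), and the bars are mean and SD of 3 libraries. CCND1 stands at 1812 to 1905 CPM in the irradiated HCT116 libraries and at 1528 to 1539 CPM in the irradiated mixed libraries, above the other groups, while CCND2 had counts in MCF10A and next to none elsewhere.

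**Figure D2:**
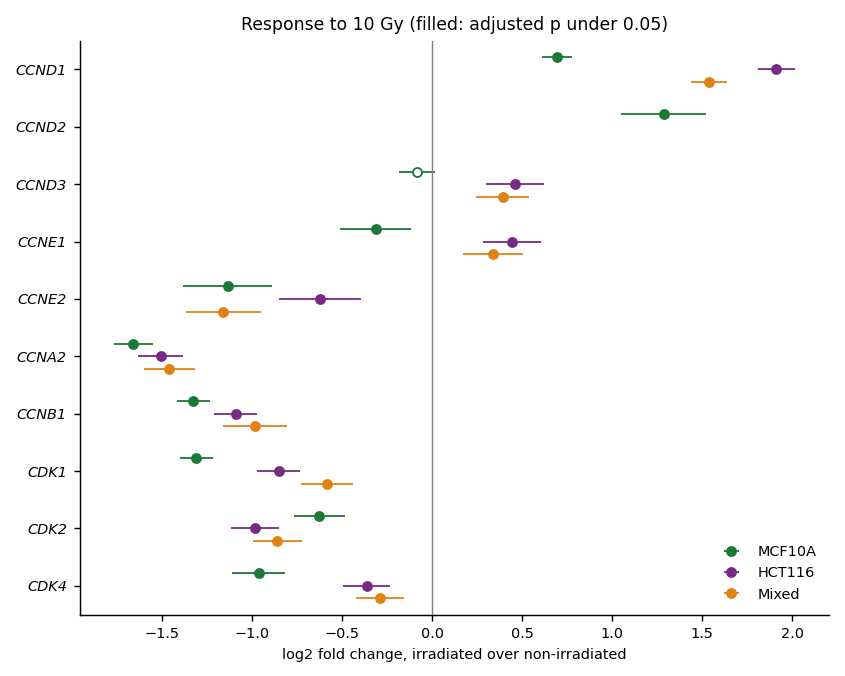
Fitted log2 fold changes of IR over NIR for each member in MCF10A, HCT116 and mixed cultures; bars are approximate 95% intervals, and an open circle is not called. CCND1 lies to the right and CCNE2, CCNA2, CCNB1, CDK1, CDK2 and CDK4 to the left in all 3, and CCNE1 lies on opposite sides in MCF10A and HCT116.

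CCND1 (chr11:69641087-69654474, plus strand, positions here and below from GENCODE v29 on GRCh38) encodes cyclin D1, the D-type cyclin most often linked to growth factor signalling. In MCF10A its level was 293, 272 and 269 CPM without irradiation and 451, 443 and 473 CPM after it. In HCT116 it was 492, 491 and 509.6 CPM without irradiation and 1905, 1865 and 1812 CPM after it. In the mixed libraries it was 545, 510.5 and 498 CPM and then 1539, 1528 and 1529 CPM. The irradiated libraries were above the non-irradiated ones of the same culture without overlap in all 3 kinds. The rise was 1.62-fold in MCF10A (log2 fold change 0.69, SE 0.042, adjusted p 6e-14) and 3.76-fold in HCT116 (1.91, SE 0.054, adjusted p 6.8e-18). In mixed cultures it was 2.90-fold (1.54, SE 0.052, adjusted p 2.8e-15). In order of level, irradiated HCT116 stood above irradiated mixed cultures, followed by NIR mixed cultures, NIR HCT116, irradiated MCF10A and NIR MCF10A, and of these neighbours the ranges of NIR mixed cultures and NIR HCT116 overlapped.

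CCND2 (chr12:4273772-4305350, plus strand) encodes cyclin D2, a close relative with a narrower tissue range. It was counted in MCF10A at 8.35, 6.82 and 7.00 CPM without irradiation and at 17.4, 20.6 and 16.9 CPM after it, from 205 to 575 counts per library. This was a 2.44-fold rise (log2 fold change 1.28, SE 0.12, adjusted p 4.3e-10), with no overlap between the groups. None of the 6 HCT116 libraries had a CCND2 count. Against a floor of 3 counts over the 3 libraries of a group, which covers counting error only, CCND2 was at least 232-fold lower in HCT116 than in MCF10A without irradiation and at least 606-fold lower after it. Counts from 1 to 10 were even in 68.3% of cases, and with all counts halved, as for mates counted separately, the bounds become 116-fold and 303-fold. The NIR mixed libraries had 0, 0 and 9 counts and the irradiated ones 2, 10 and 2, too few to test.

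CCND3 (chr6:41934933-42050357, minus strand) encodes cyclin D3. Its level was 99.4, 99.3 and 92.8 CPM in NIR and 94.9, 89.7 and 94.1 CPM in irradiated MCF10A, groups that overlapped and whose difference was not called (log2 fold change -0.09, approximate 95% interval -0.19 to 0.01, adjusted p 0.15). In HCT116 it was 28.4, 31.1 and 29.3 CPM and then 41.7, 41.0 and 38.5 CPM. All 3 irradiated HCT116 libraries were above the NIR ones, a 1.37-fold rise (log2 fold change 0.46, SE 0.082, adjusted p 5.3e-05). Mixed cultures went from 32.2, 31.5 and 30.0 CPM to 43.0, 42.4 and 39.7 CPM, 1.31-fold higher (0.39, SE 0.075, adjusted p 0.00018). The 2 MCF10A groups had the highest levels and overlapped each other, the irradiated mixed and HCT116 groups followed and overlapped, and the NIR mixed and HCT116 groups were lowest and overlapped.

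To compare levels between genes, counts were also scaled per kilobase of exon as RPKM, with exon lengths from GENCODE v29. The length took in every annotated exon of a gene over all its transcripts, not only those expressed here. Shares and ratios between genes therefore depend on the annotation, and the SD does not cover this. On the RPKM scale CCND1 held 76.4% ± 0.604 of the summed D-type transcripts in NIR MCF10A, CCND3 22.3% ± 0.692 and CCND2 1.37% ± 0.0997 (SD, n = 3 here and for each share below). After irradiation the CCND1 share in MCF10A was 83.5% ± 0.437 and the CCND2 share 2.27% ± 0.303. In HCT116 the CCND1 share was 95.3% ± 0.252 without irradiation and 98.2% ± 0.0320 after it, and in mixed cultures 95.2% ± 0.0986 and 97.8% ± 0.0881. In each kind of culture the CCND1 share of every irradiated library was above that of every NIR library. The smallest exact 2-sided permutation p that 3 against 3 libraries allow is 0.1, so the shares carry no test.

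**Figure D3:**
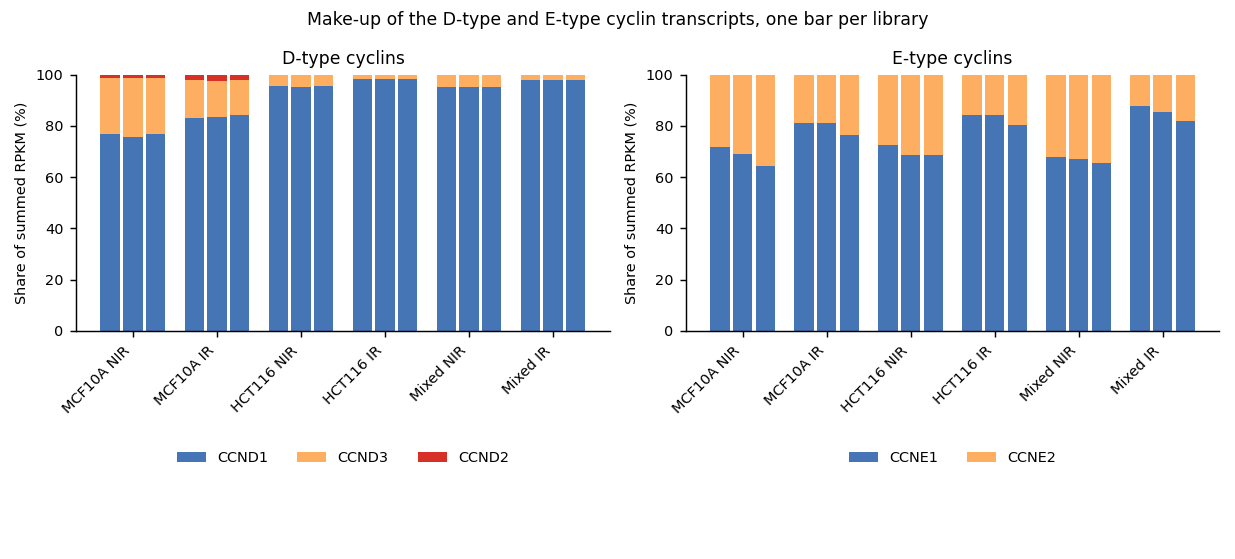
Share of each gene in the summed RPKM of the D-type cyclins (left) and E-type cyclins (right), with 1 bar per library on an axis from 0 to 100%. CCND1 makes up 75.7 to 98.3% of the D-type sum, and CCNE1 makes up 64.3 to 87.9% of the E-type sum with a larger part in irradiated libraries.

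CCNE1 (chr19:29811898-29824308, plus strand) encodes cyclin E1, an activator of CDK2 at the start of DNA replication. In MCF10A it was at 21.1, 21.9 and 17.4 CPM without irradiation and at 16.6, 16.5 and 16.3 CPM after it. The HCT116 levels were 28.3, 28.9 and 28.7 CPM and then 39.4, 39.7 and 36.8 CPM. In the mixed libraries it was at 33.2, 28.9 and 29.4 CPM and then at 42.1, 40.0 and 35.4 CPM. The irradiated libraries were thus below the NIR ones in MCF10A and above them in HCT116 and mixed cultures, without overlap in any of the 3. CCNE1 fell by 0.32 on the log2 scale in MCF10A (SE 0.10, adjusted p 0.0094), and rose by 0.44 in HCT116 (SE 0.082, adjusted p 7.7e-05) and by 0.34 in mixed cultures (SE 0.085, adjusted p 0.0023). The fall in MCF10A was no longer called with upper-quartile factors (-0.23, adjusted p 0.056) or without MCF10A NIR replicate 2 (-0.24, adjusted p 0.068). Levels overlapped between the irradiated mixed and HCT116 groups and between the NIR mixed and HCT116 groups, and both MCF10A groups lay below all of these.

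CCNE2 (chr8:94879770-94896678, minus strand) encodes cyclin E2, the second E-type cyclin. It was at 14.4, 17.0 and 16.6 CPM in NIR and at 6.76, 6.71 and 8.61 CPM in irradiated MCF10A. HCT116 libraries stood at 18.6, 22.8 and 22.5 CPM and then at 12.7, 13.0 and 15.6 CPM. In the mixed libraries it was at 27.2, 24.3 and 26.5 CPM and then at 10.0, 12.0 and 13.5 CPM. Every irradiated library was below every NIR library of its culture, and the falls were 2.20-fold in MCF10A (log2 fold change -1.14, SE 0.13, adjusted p 9.9e-09), 1.54-fold in HCT116 (-0.62, SE 0.12, adjusted p 7.8e-05) and 2.24-fold in mixed cultures (-1.16, SE 0.11, adjusted p 1.1e-08). The exons of CCNE2 share 37.0% of their bases with INTS8 on the opposite strand, which reached 129 CPM; the strand setting of the counting is not given in the sources used here, and without strand the reads of both genes cannot be told apart.

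In HCT116 and mixed cultures CCNE1 and CCNE2 therefore changed in opposite directions, while in MCF10A both fell, CCNE2 by more. The limit given for CCNE2 and INTS8 holds for their shares too. On the RPKM scale CCNE1 held 68.3% ± 3.75 of their sum in NIR and 79.4% ± 2.55 in irradiated MCF10A. The CCNE1 share in HCT116 was 69.9% ± 2.17 and then 82.8% ± 2.25, and in mixed cultures 66.8% ± 1.10 and then 84.97% ± 3.02. The irradiated libraries had the higher CCNE1 share in each kind of culture, without overlap.

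CCNA2 (chr4:121816444-121823933, minus strand) encodes cyclin A2, which partners CDK2 in DNA replication and CDK1 before mitosis. It was at 162, 154 and 154 CPM in NIR MCF10A and at 50.0, 54.1 and 46.9 CPM after irradiation. HCT116 libraries stood at 127, 131 and 121 CPM and then at 44.7, 44.2 and 43.4 CPM, and in the mixed libraries at 148, 137 and 147 CPM and then at 47.2, 59.0 and 53.5 CPM. The groups were far apart in each kind of culture, with falls of 3.16-fold in MCF10A (log2 fold change -1.66, SE 0.055, adjusted p 1.1e-19), 2.85-fold in HCT116 (-1.51, SE 0.064, adjusted p 6.4e-15) and 2.75-fold in mixed cultures (-1.46, SE 0.072, adjusted p 8.2e-13). The order of levels was NIR MCF10A, NIR mixed and NIR HCT116, then irradiated mixed, MCF10A and HCT116, and of these neighbours the irradiated mixed and MCF10A groups overlapped.

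CCNB1 (chr5:69167010-69178245, plus strand) encodes cyclin B1, the partner of CDK1 at entry into mitosis. It was at 259, 271 and 261 CPM in NIR and at 103, 112 and 105 CPM in irradiated MCF10A, a 2.51-fold fall (log2 fold change -1.33, SE 0.047, adjusted p 4.3e-19). The HCT116 levels were 251, 237 and 218 CPM and then 108, 111 and 110.1 CPM, a 2.13-fold fall (-1.09, SE 0.061, adjusted p 7.2e-13). The mixed libraries spread more widely, from 309, 249.4 and 249.9 CPM to 115, 159 and 141 CPM, a 1.98-fold fall (-0.98, SE 0.090, adjusted p 9.3e-09). No irradiated library of any culture reached the lowest NIR library of that culture. The ranges of NIR mixed and NIR MCF10A overlapped, as did those of irradiated HCT116 and irradiated MCF10A.

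CDK1 (chr10:60778331-60794852, plus strand) encodes the kinase of mitotic entry. It was at 202, 208 and 195 CPM in NIR and at 84.5, 80.7 and 82.8 CPM in irradiated MCF10A. The fall in HCT116 was from 223, 238 and 215 CPM to 118, 122 and 132 CPM, and in the mixed libraries from 256, 231 and 247 CPM to 140.5, 182 and 175 CPM. The groups did not overlap within any culture, and the falls were 2.48-fold in MCF10A (log2 fold change -1.31, SE 0.047, adjusted p 6.4e-19), 1.81-fold in HCT116 (-0.85, SE 0.061, adjusted p 5.2e-11) and 1.502-fold in mixed cultures (-0.59, SE 0.073, adjusted p 9.3e-07). From highest to lowest the groups were NIR mixed, NIR HCT116, NIR MCF10A, irradiated mixed, irradiated HCT116 and irradiated MCF10A, and the NIR mixed and NIR HCT116 ranges overlapped.

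CDK2 (chr12:55966769-55972784, plus strand) encodes the kinase activated by E-type and A-type cyclins. It was at 45.3, 42.2 and 45.6 CPM in NIR and at 29.3, 30.6 and 27.5 CPM in irradiated MCF10A. In HCT116 it was at 84.8, 86.9 and 79.2 CPM and then at 42.9, 41.1 and 42.2 CPM, and in the mixed libraries at 81.4, 84.8 and 74.8 CPM and then at 43.1, 46.7 and 45.4 CPM. It fell 1.55-fold in MCF10A (log2 fold change -0.63, SE 0.073, adjusted p 2.4e-08), 1.98-fold in HCT116 (-0.98, SE 0.067, adjusted p 2.4e-11) and 1.82-fold in mixed cultures (-0.86, SE 0.070, adjusted p 1.6e-09), without overlap of groups in any of them. Irradiated mixed, NIR MCF10A and irradiated HCT116 cultures had neighbouring levels whose ranges overlapped, and irradiated MCF10A stood alone as the lowest.

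CDK4 (chr12:57747727-57756013, minus strand) encodes the kinase of the D-type cyclins. It was at 82.6, 98.5 and 78.9 CPM in NIR and at 40.6, 48.0 and 46.6 CPM in irradiated MCF10A. In HCT116 it was at 88.0, 91.9 and 99.9 CPM and then at 72.4, 73.8 and 69.6 CPM, and in the mixed libraries at 83.4, 82.0 and 94.6 CPM and then at 70.6, 74.0 and 72.0 CPM. CDK4 fell in all 3, by 1.95-fold in MCF10A (log2 fold change -0.97, SE 0.075, adjusted p 1e-11), 1.29-fold in HCT116 (-0.37, SE 0.067, adjusted p 7.8e-05) and 1.22-fold in mixed cultures (-0.29, SE 0.067, adjusted p 0.0011). The 3 NIR groups overlapped, irradiated mixed and HCT116 groups overlapped below them, and irradiated MCF10A was lowest without overlap. Of the exonic bases of CDK4, 43.2% lie opposite to TSPAN31, which reached 25.9 CPM, and the limit given for CCNE2 holds here too. Smaller exonic overlaps on the opposite strand were 14.5% of CDK2 with AC025162.1, 10.3% of CCND1 with LTO1 and 9.08% of CCNA2 with EXOSC9, and on the same strand 13.8% of CCND2 with AC008012.1.

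Within a library, the kinases also changed relative to each other on the RPKM scale. CDK2 stood at 0.222 ± 0.0159 of CDK1 in NIR and at 0.356 ± 0.0246 in irradiated MCF10A, a rise in the ratio without overlap, since CDK1 fell more than CDK2 there. In HCT116 this ratio was 0.375 ± 0.00849 and then 0.343 ± 0.0216 (SD, n = 3 each), with every irradiated library below every NIR one. In mixed cultures it was 0.333 ± 0.0339 and then 0.277 ± 0.0286, and the groups overlapped. CDK4 stood at 0.532 ± 0.0483 of CDK1 in NIR and 0.678 ± 0.0733 in irradiated MCF10A, and at 0.515 ± 0.0526 and 0.721 ± 0.0580 in HCT116. In mixed cultures it was 0.440 ± 0.0350 and then 0.546 ± 0.0673, and this ratio was higher after irradiation without overlap in all 3.

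The lines were compared without irradiation to ask how their cell-cycle genes differed at baseline. HCT116 had more CCND1, CCNE1 and CDK2 and less CCND2, CCND3, CCNA2 and CCNB1 than MCF10A. Thus 7 of 10 members were called, 3 higher and 4 lower in HCT116, where 74.8% of 16568 genes were called, 38.7% higher and 36.1% lower. CCND3 differed most after CCND2, 3.77-fold lower in HCT116 (log2 fold difference -1.91, SE 0.067, adjusted p 2.4e-14). CDK2 was 1.64-fold higher (0.72, SE 0.064, adjusted p 1.4e-08), CCND1 1.56-fold higher (0.64, SE 0.052, adjusted p 3.2e-09) and CCNE1 1.24-fold higher (0.30, SE 0.099, adjusted p 0.01). CCNA2 was 1.43-fold lower (-0.51, SE 0.053, adjusted p 8.7e-08) and CCNB1 1.29-fold lower (-0.36, SE 0.055, adjusted p 1.1e-05). CCNE2 (0.21, interval -0.01 to 0.43, adjusted p 0.1), CDK1 (-0.04, interval -0.14 to 0.06, adjusted p 0.51) and CDK4 (-0.09, interval -0.25 to 0.06, adjusted p 0.3) were not called.

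CPM and fitted differences between the lines are on different scales, because the fit rescales libraries with TMM factors: CDK1 was higher in every NIR HCT116 library in CPM while its fitted difference was -0.04. The median fitted difference of all genes was 0.049 with TMM and 0.25 with upper-quartile factors, where 62.4% of called genes were higher in HCT116 in place of 51.8%. With upper-quartile factors CDK1 was called higher in HCT116 (0.16, adjusted p 0.011), which is below that median, and CCNE2 was called higher (0.41, adjusted p 0.0031). CCNE2 was also called without HCT116 NIR replicate 1 (0.31, adjusted p 0.024), and CCNE1 was not called without MCF10A NIR replicate 3 (0.19, adjusted p 0.089).

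After irradiation all 10 members were called, 6 higher and 4 lower in HCT116, against 74.9% of 16932 genes, 38.1% higher and 36.8% lower. CCND1 was 3.48-fold higher in irradiated HCT116 than in irradiated MCF10A (log2 fold difference 1.80, SE 0.045, adjusted p 2.7e-22) and CCNE1 2.00-fold higher (1.00, SE 0.086, adjusted p 7.7e-11). CCNE2 was 1.58-fold higher (0.66, SE 0.14, adjusted p 0.00013), CDK4 1.36-fold higher (0.44, SE 0.070, adjusted p 2.8e-06), CDK1 1.28-fold higher (0.36, SE 0.054, adjusted p 1.8e-06) and CDK2 1.23-fold higher (0.30, SE 0.077, adjusted p 0.0012). CCND3 was 2.69-fold lower (-1.43, SE 0.061, adjusted p 3.5e-17) and CCNA2 1.34-fold lower (-0.42, SE 0.071, adjusted p 8.1e-06), and CCND2 had no counts in HCT116. CCNB1 had a fitted difference of -0.19 (SE 0.054, adjusted p 0.0027) although its CPM ranges overlapped, and it was not called with upper-quartile factors (-0.0065, adjusted p 0.92) or in a fit of all 18 libraries (-0.12, adjusted p 0.18). The median of the members was 0.33, with CCND2 lowest whether at its fitted value or its bound, and that of all genes 0.037, or 0.22 with upper-quartile factors.

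**Figure D4:**
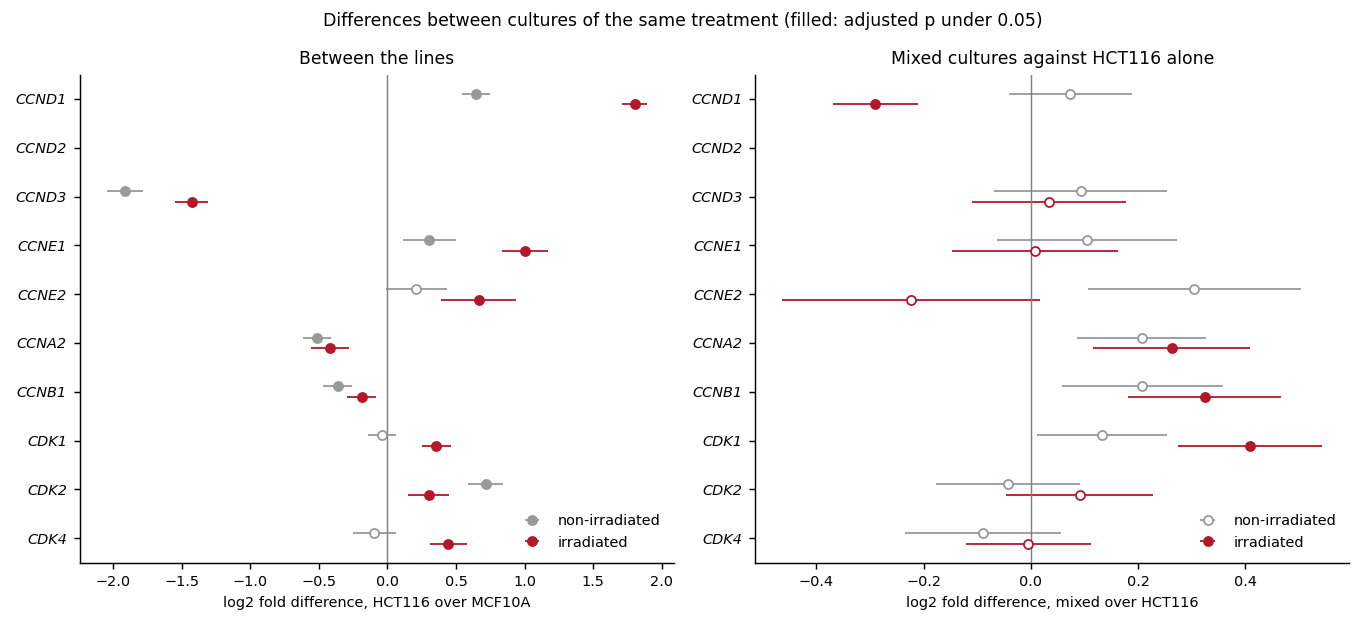
Fitted log2 fold differences between cultures of the same treatment, HCT116 over MCF10A (left) and mixed over HCT116 (right); grey is NIR, red is IR, bars are approximate 95% intervals and open circles are not called. CCND2 is left out because it had no counts in HCT116. CCND1 lies at 0.64 without and 1.80 with irradiation on the left, and on the right no member is called without irradiation and 4 are called with it.

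The difference between the responses was tested directly, as the log2 fold change of HCT116 minus that of MCF10A over the 12 monoculture libraries. CCND1, CCND3, CCNE1, CDK1 and CDK4 responded more positively in HCT116 and CDK2 more negatively. Of 9 members tested, 6 were called, 5 higher and 1 lower, where 37.3% of 18179 genes were called, 15.4% higher and 21.9% lower. The median of the members was 0.43 and that of all genes -0.10. CCND1 differed by 1.14 (SE 0.066, adjusted p 1.2e-12) and CCNE1, which moved in opposite directions in the 2 lines, by 0.68 (SE 0.13, adjusted p 0.00014). CDK4 differed by 0.52 (SE 0.11, adjusted p 0.00056), CCND3 by 0.47 (SE 0.087, adjusted p 0.00012) and CDK1 by 0.38 (SE 0.075, adjusted p 0.00022). CDK2 differed by -0.43 (SE 0.094, adjusted p 0.00062), having fallen further in HCT116.

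For CCNA2, CCNB1 and CCNE2, which fell in both lines, no difference in response was called. CCNA2 differed by 0.08 (interval -0.09 to 0.24, adjusted p 0.52), CCNB1 by 0.16 (interval 0.01 to 0.31, adjusted p 0.11) and CCNE2 by 0.43 (interval 0.08 to 0.79, adjusted p 0.061). The last 2 lie near the threshold: with mitochondrial genes and the 10 most abundant others removed, CCNB1 was called (0.26, adjusted p 0.0078) and so was CCNE2 (0.54, adjusted p 0.021), and other settings and left-out libraries that called them are given at the end. CCNA2 was called without MCF10A IR replicate 2 (0.24, adjusted p 0.03). After the same removal 52.5% of all called genes were higher in HCT116 in place of 41.3%, and without a filter on low counts 51.9%.

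The libraries labelled mixed were compared with HCT116 alone, the line whose RNA they mostly held. Without irradiation none of 9 members was called, where 2.04% of 16455 genes were called, 0.887% higher and 1.15% lower. At an unadjusted p under 0.05 there were 4, all higher in mixed cultures: CCNE2 (log2 fold difference 0.30, interval 0.11 to 0.50, adjusted p 0.14), CCNA2 (0.21, interval 0.09 to 0.33, adjusted p 0.093), CCNB1 (0.21, interval 0.06 to 0.36, adjusted p 0.2) and CDK1 (0.13, interval 0.01 to 0.25, adjusted p 0.33). At that unadjusted threshold stood 2367 of the 16455 genes. DESeq2 called 1 of the 9, CCNA2 (0.21, adjusted p 0.045). The other 5 had intervals that included 0, from -0.24 for the lower end of CDK4 to 0.27 for the upper end of CCNE1.

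After irradiation 4 of 9 members were called between mixed and HCT116 cultures, 3 higher and 1 lower in mixed cultures, against 8.56% of 17137 genes, 5.08% higher and 3.48% lower. CDK1 was 1.33-fold higher in mixed cultures (log2 fold difference 0.41, SE 0.068, adjusted p 0.00013), CCNB1 1.25-fold higher (0.32, SE 0.073, adjusted p 0.0036) and CCNA2 1.20-fold higher (0.26, SE 0.075, adjusted p 0.023). CCND1 was 1.22-fold lower (-0.29, SE 0.040, adjusted p 8e-06). The levels of these 4 did not overlap between the groups. Neither did those of CDK2, which was not called (0.09, interval -0.05 to 0.23, adjusted p 0.51), so the lack of overlap does not set the 4 apart. Irradiated mixed replicate 1 was nearest to HCT116 for CDK1, CCNB1 and CCNA2, at 140.5, 115 and 47.2 CPM. CCNB1 was not called without mixed IR replicate 2 (0.21, adjusted p 0.089), and CCNA2 was not called without that library (0.18, adjusted p 0.24), mixed IR replicate 3 (adjusted p 0.085), HCT116 IR replicate 2 (adjusted p 0.064) or HCT116 IR replicate 3 (adjusted p 0.094). In these same irradiated libraries the share of MCF10A RNA was 1.17 to 1.29%, and its part in these differences was not tested.

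The response itself differed between mixed and HCT116 cultures for 1 of 9 members, lower, against 0.830% of 18072 genes, 0.149% of them lower. This was CCND1, with a difference of -0.36 (SE 0.068, adjusted p 0.0069), 2.90-fold against 3.76-fold. CCNE2 differed by -0.53 (interval -0.84 to -0.21, adjusted p 0.13) and CDK1 by 0.28 (interval 0.08 to 0.48, adjusted p 0.23), and neither was called. The remaining 6 had intervals that included 0. Of all genes called here 82.0% were higher in mixed cultures, and 61.5% with DESeq2.

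Other genes of the pathway were read by list, each against the share of all genes called. That share was 55.4% in MCF10A (26.2% higher, 29.2% lower), 52.5% in HCT116 (25.3% and 27.2%) and 49.4% in mixed cultures (24.0% and 25.4%). A gene named for its change in one kind of culture is given in all 3 where it was tested. All 5 CDK activators and partners, the CDC25 phosphatases that remove inhibitory phosphates and the small CDK-binding CKS proteins, fell in MCF10A, in HCT116 and in mixed cultures. In these 3 kinds of culture, in that order, the log2 fold changes were -1.47, -1.57 and -1.28 for CDC25C, -1.33, -1.04 and -0.78 for CKS2, and -1.33, -0.81 and -0.77 for CKS1B. CDC25A had -1.05, -0.64 and -0.61, and CDC25B had -0.85, -1.33 and -0.97. The list medians were -1.33, -1.04 and -0.78.

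Among the other cyclins and CDKs, 12 were tested in each kind of culture, with 2 higher and 7 lower in MCF10A, 4 higher and 4 lower in HCT116, and 4 higher and 5 lower in mixed cultures. The shares of all genes called were 55.4%, 52.5% and 49.4%, and the list medians were -0.34, -0.0091 and -0.056. CCNB2, the second mitotic B-type cyclin, fell (-1.53, -1.43 and -1.06), as did CCNF, a cyclin that serves as a ubiquitin ligase subunit (-1.29, -1.28 and -1.12). CDK6, the relative of CDK4, rose by 1.13 in HCT116 (156 ± 9.95 to 339 ± 10.1 CPM, SD, n = 3), by 0.80 in mixed cultures and by 0.24 in MCF10A. The G-type cyclins moved in opposite directions in the 2 lines: CCNG1 rose by 0.73 in HCT116 and by 0.64 in mixed cultures and fell in MCF10A (-0.34, adjusted p 3.8e-08). CCNG2, linked to cell-cycle exit, rose by 0.72 in MCF10A and fell in HCT116 (-0.51, adjusted p 4.3e-06) and in mixed cultures (-0.62, adjusted p 6.8e-06). CCNA1, the germline A-type cyclin, fell in MCF10A (-0.99) and was not tested elsewhere, having failed the filter on low counts. CDK6 was also higher in mixed than in HCT116 cultures, at 251 against 156 CPM without irradiation (log2 fold difference 0.70, SE 0.064, adjusted p 8.9e-06) and at 445 against 339 CPM after it (0.38, SE 0.049, adjusted p 1.7e-06); this pair was chosen after its values were seen.

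Among CDK-inhibiting kinases and inhibitors, 1 of 8 tested was higher and 6 were lower in MCF10A, in HCT116 1 of 10 and 8, and in mixed cultures 1 of 10 and 8; in HCT116 2 were higher without HCT116 IR replicate 2, and in mixed cultures 2 were with upper-quartile factors. Of all genes 29.2%, 27.2% and 25.4% were lower, and the list medians were -0.84, -1.23 and -1.04. The one called higher in each was CDKN1A. CDKN1A, which encodes p21, rose from 172 ± 10.4 to 590.4 ± 26.6 CPM in MCF10A (log2 fold change 1.76, SE 0.047, adjusted p 1.1e-21). It rose from 318 ± 39.3 to 1593 ± 90.2 CPM in HCT116 (2.33, SE 0.075, adjusted p 5e-17) and by 2.19 in mixed cultures. CDKN2C, an inhibitor of CDK4 and CDK6, fell (-1.4998, -1.92 and -2.03), and CDKN1C, which encodes p57, fell in HCT116 (-2.52) and in mixed cultures (-2.02). In MCF10A CDKN1C had -0.72 (adjusted p 0.034), a call lost with upper-quartile factors (-0.63, adjusted p 0.062) and without MCF10A NIR replicate 1 (-0.43, adjusted p 0.27) or IR replicate 3 (-0.56, adjusted p 0.14). CDKN3, a phosphatase acting on CDKs, fell (-1.86, -1.599 and -1.24), as did the inhibitory kinase PKMYT1 (-1.35, -1.45 and -1.41).

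Of 10 genes of cyclin ubiquitination, 1 was higher and 6 lower in MCF10A, 3 and 7 in HCT116, and 2 and 7 in mixed cultures. Of all genes, 26.2% were higher and 29.2% lower in MCF10A, 25.3% and 27.2% in HCT116, and 24.0% and 25.4% in mixed cultures, and the list medians were -0.57, -0.52 and -0.48. CDC20, an activator of the anaphase-promoting complex that targets cyclin B1, fell (-1.51, -1.69 and -1.28), as did FBXO5, an inhibitor of that complex (-1.43, -1.53 and -1.43). The ubiquitin-conjugating enzymes of the complex fell as well, UBE2C (-1.33, -1.08 and -0.75) and UBE2S (-1.06, -1.02 and -0.95). The single gene called higher in MCF10A was AMBRA1, which targets D-type cyclins (0.19, SE 0.077, adjusted p 0.037); it was named after its value was seen, and the call was lost without a filter and without each of 4 MCF10A libraries, NIR replicate 1 and IR replicates 1, 2 and 3.

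Of 16 transcriptional regulators of cyclin genes, none was higher and 13 were lower in MCF10A, 1 was higher and 11 lower in HCT116, and 1 was higher and 12 lower in mixed cultures. The shares of all genes called lower were 29.2%, 27.2% and 25.4%, and the list medians were -0.58, -0.74 and -0.72. MYBL2, which activates mitotic genes, fell (-1.54, -1.41 and -1.36), as did E2F1 (-1.35, -1.47 and -1.26). FOXM1, an activator of CCNB1, fell (-1.30, -1.33 and -1.20), and so did E2F2 (-1.87, -0.95 and -0.93). The repressor E2F8 fell (-1.995, -1.37 and -1.38), as did the RB-family member RBL1 (-0.88, -1.39 and -1.34). With upper-quartile factors 2 regulators were higher in mixed cultures, and likewise in the fit of all 18 libraries and without mixed NIR replicate 1.

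**Figure D5:**
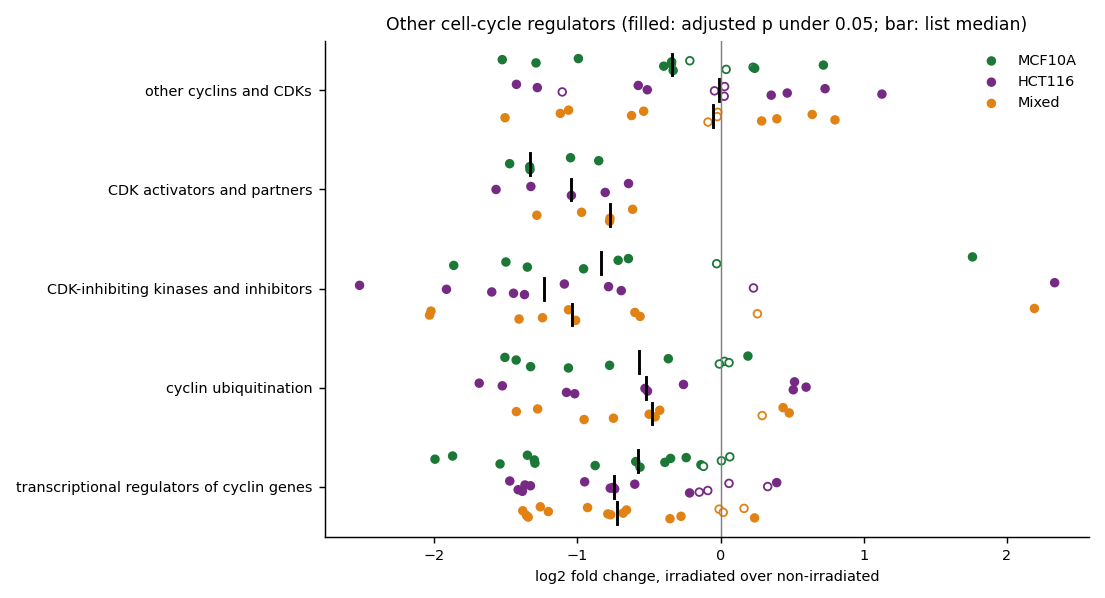
Fitted log2 fold changes of IR over NIR for the genes of 5 pathway lists in MCF10A, HCT116 and mixed cultures; each circle is a gene (filled if called) and the black bar is the list median. All circles of the CDK activators and partners lie left of 0, and the circle far to the right among the inhibitors is CDKN1A at 1.76, 2.33 and 2.19.

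For each member, the genes with the most similar profile were taken as those with the highest Pearson r of log2(CPM + 1) over the 18 libraries, among 9921 genes with a mean of at least 10 CPM. The libraries fall into 6 groups that differ by line and treatment, so any gene that splits the groups in the same way scores high, and these values describe likeness only. CCNA2 was most like TPX2 (r = 0.997) and KIF11 (0.994), and CCNB1 most like CIP2A (0.985) and PLK1 (0.985). CDK2 was most like FANCA (0.993) and LIG1 (0.989), CDK1 like USP13 (0.979) and CDCA7 (0.975), and CDK4 like APEX1 (0.971) and PRMT1 (0.969). CCND1 was most like PLCD3 (0.995) and SYNJ2BP (0.994), CCND2 like IL33 (0.997), and CCND3 like EMB (0.996) and PTGES (0.995). CCNE1 was most like MRPS23 (0.985) and SLX4IP (0.984), and CCNE2 like CNOT7 (0.968) and VBP1 (0.968).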

How the data were processed

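Polyadenylated RNA was sequenced from 18 cultures, 3 per group. The authors deposited raw counts per gene symbol for each library, without normalization. Per the submitters' processing notes, fastp, STAR and featureCounts were used with GRCh38; versions, the annotation, the strand setting and whether mates were counted one by one are not given in the sources used here. Overlaps of exons on opposite strands were therefore computed from GENCODE v29. Replicate p-values measure the spread between these libraries.

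From the counts, CPM were computed as counts times 1e+06 over the library total, and RPKM from CPM and GENCODE exon lengths. The 9 comparisons used edgeR 4.0.16 in R 4.3.3 (TMM, filterByExpr, quasi-likelihood test, 2-sided, Benjamini-Hochberg over all genes, threshold 0.05) on the compared groups; the SE was the fold change over the square root of F, and approximate 95% intervals were taken from it. The test was checked on simulated data. For HCT116 IR against NIR, 80% of 1.5-fold and 86% of 2-fold changes were recovered, and 5.68% of calls were unchanged genes. For the response of HCT116 minus MCF10A, 50% and 75% were recovered, and 3.10% of calls were unchanged genes. Each simulation changed 200 genes, far fewer than were called in the data, so these rates need not hold for the members. A response difference that was not called may have been missed. Alternatives were RLE and upper-quartile factors, DESeq2 1.42.0, no filter, a replicate block, all 18 libraries, counts halved, removal of mitochondrial and the 10 most abundant genes, and leaving out each library. The MCF10A share came from genes with at least 20 CPM in 1 line and under 1 CPM in the other. Promoter sequences were taken from RefSeq.

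The members and gene lists were chosen with earlier results of these data known. All members were named. Of each pathway list, the 4 called genes with the largest change, among those reaching 10 CPM on average in either group, were named for each irradiation comparison, and likeness was given for 2 genes per member. Some items that these rules would name are not reported here. The libraries were treated as unpaired. Pathway genes were run under the alternatives only after their values were seen.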

Additional observations from a re-analysis of the deposited data

Results flagged for a closer look

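The responses of the 2 monocultures to irradiation differed for 6 members by a test of the difference itself, HCT116 minus MCF10A (edgeR, adjusted p under 0.05). Of 18179 genes 37.3% were called in this test, 15.4% higher and 21.9% lower. The differences were 1.14 for CCND1, 0.68 for CCNE1, 0.52 for CDK4, 0.47 for CCND3, 0.38 for CDK1 and -0.43 for CDK2. These 6 differences kept their call and direction under each alternative run. CCNE1 is the member among them whose fitted change had opposite, called directions in the lines. Its fall in MCF10A was itself not called with upper-quartile factors (adjusted p 0.056) or without MCF10A NIR replicate 2 (adjusted p 0.068). The lines also differed in medium, which cannot be told apart from the line.

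CCND1 also responded less in mixed than in HCT116 cultures, by -0.36 on the log2 scale. Its irradiated level was 1532 ± 5.98 CPM in mixed and 1861 ± 46.4 CPM in HCT116 cultures (SD, n = 3), and its NIR level 518 ± 24.4 and 497 ± 10.6 CPM. The call held under each alternative run, and when 1 of the 12 libraries at a time was omitted the difference ranged from -0.41 to -0.36.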

How the results depend on the processing

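Of 612 member results with a library left out, 594 kept direction and call, 7 lost the call and 11 gained one; of 672 under other alternatives, 654 kept both, 3 lost the call, 14 gained one and 1 turned. The one that turned was CDK1 between the NIR lines, 0.16 with upper-quartile factors (adjusted p 0.011) against -0.04. The named pathway genes, run under the same alternatives after their values were seen, kept call and direction in 1126 of 1134 results; the 8 that lost the call were CDKN1C and AMBRA1 in MCF10A. Of the list counts, 410 of 420 stayed within 1.5 times.

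With upper-quartile factors 5 members were higher in HCT116 between the NIR lines, in place of 3. Of all 16568 genes tested, 7807 were higher there, in place of 6415. Between mixed and HCT116 NIR cultures, genes called higher numbered 146, and 278 with DESeq2, 308 without a filter and 490 with all 18 libraries; genes called lower numbered 189, and 297 with DESeq2 and 363 without a filter. In each of these 3 settings 1 member was called higher: CCNA2 with DESeq2 (adjusted p 0.045) and all libraries (0.044), CCNB1 without a filter (0.046). Leaving out a library gave 68 to 144 higher and 77 to 181 lower genes, and the counts moved by over 1.5 times without HCT116 NIR replicate 2 (77 and 101), HCT116 NIR replicate 3 (125 lower) or mixed NIR replicate 1 (68 and 77). Between irradiated mixed and HCT116 cultures 596 genes were lower, and 261 with all 18 libraries; leaving out a library gave 567 to 800 higher and 299 to 537 lower genes and 1 to 3 members higher, with the lowest of each without mixed IR replicate 2 (328 lower without replicate 3). For the response of mixed minus HCT116 cultures, 123 genes were higher and 27 lower, 201 and 126 with DESeq2 and 253 and 83 without a filter; leaving out a library gave 48 to 137 higher and 12 to 60 lower. Higher calls moved by over 1.5 times without any 1 of these libraries except HCT116 NIR replicate 3 and mixed NIR replicates 2 and 3, and lower calls without HCT116 IR replicate 1, mixed NIR replicate 2 or 3, or mixed IR replicate 3. The cause of these moves was not tested.

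For the response of HCT116 minus MCF10A, CCNE2 was called with RLE factors (adjusted p 0.048), DESeq2 (0.042), no filter (0.014) and all 18 libraries (0.018), and without MCF10A NIR replicate 1 (0.039), MCF10A IR replicate 3 (0.007), HCT116 NIR replicate 3 (0.049) or HCT116 IR replicate 2 (0.021). CCNB1 was called with DESeq2 (0.044) and no filter (0.0064), and without MCF10A IR replicates 1 (0.027), 2 (0.0039) or 3 (0.022), HCT116 NIR replicate 1 (0.042) or HCT116 IR replicate 2 (0.016).

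The share of MCF10A RNA was 0.447% in NIR and 1.24% in irradiated mixed libraries, 0.345% and 1.07% with line-specific genes of at least 50 CPM, and 0.704% and 2.17% from summed CPM.

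Residuals of same-numbered libraries had mean correlations from -0.021 to 0.057 between groups, with 0.057 between HCT116 NIR and mixed NIR. These values do not settle whether replicate numbers pair libraries within a comparison. With a replicate block, 319 genes were higher and 397 lower between mixed and HCT116 NIR cultures, in place of 146 and 189. There 1 member was higher, CCNB1 (adjusted p 0.043). Between the irradiated cultures 1263 genes were higher and 957 lower, in place of 871 and 596. The block also called CCNE2 for HCT116 minus MCF10A (0.44, adjusted p 0.036), and it changed no other member's call.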

Other observations

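Between cultures of the same treatment, the pathway lists are read against the share of all genes called. That share was 74.8% between the NIR lines (38.7% higher and 36.1% lower in HCT116) and 74.9% between the irradiated lines (38.1% and 36.8%). Between the NIR lines, 6 of 10 CDK-inhibiting kinases and inhibitors were higher in HCT116 and none was lower, and after irradiation 4 were higher and 2 lower. CDKN2A and CDKN2B, which had no counts in MCF10A in either treatment, were among the higher ones both times. Of the other cyclins and CDKs, 2 of 13 were higher and 7 lower in HCT116 without irradiation, and 4 of 12 and 3 after it. With calls in both directions counted, the shares called in these lists were below those of all genes. By direction, the share of inhibitors called higher was above that of all genes without irradiation. After irradiation it was near that of all genes, at 4 of 10 against 38.1%. The share of other cyclins and CDKs called lower was above that of all genes without irradiation. Of cyclin ubiquitination genes, 10 of 10 were called without irradiation (4 higher, 6 lower) and 5 of 10 after it (2 and 3). Of transcriptional regulators, 13 of 16 were called both times (5 higher, 8 lower). Of CDK activators and partners, 4 of 5 were (1 and 3).

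Between irradiated mixed and HCT116 cultures, 2 of 10 genes of cyclin ubiquitination and 3 of 16 transcriptional regulators were higher in mixed cultures and none lower, where 8.56% of all genes were called, 5.08% higher and 3.48% lower. Of the inhibitors, 2 of 10 were higher and 1 lower, and of the other cyclins and CDKs 2 of 11 were higher and 2 lower.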
